A study of Mus musculus with 23 samples.

Results

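Mouse embryos labelled Eif4enif1+/- and arrested at the 1-cell stage when sampled at 24 h of culture were compared with Eif4enif1+/- 1-cell embryos. For the latter no culture time is given. These groups are called arrested and fresh. The comparison rests on 6 of the 23 libraries of the series, 3 arrested and 3 fresh, chosen by their labels alone. The other 9 embryo libraries served as reference: 3 of Eif4enif1+/- 2-cell embryos cultured for 24 h, 3 of wild-type (WT) 1-cell embryos with no culture time given and 3 of WT 2-cell embryos cultured for 24 h. Both main groups carry the same genotype label, called het here. Whether it describes the embryos or the females that bore them is not stated, nor are strain, age, the structure of the allele or how many embryos were pooled in a library. Fresh embryos are taken to be uncultured, so arrested and fresh embryos differ in culture time as well as in arrest. Culture time and arrest cannot be told apart by this comparison alone. The het 2-cell libraries, which had the same 24 h of culture, stand beside it for that reason.

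Eif4enif1 encodes 4E-T, a partner of the cap-binding protein eIF4E and a component of the granules in which oocytes keep translationally silent mRNA. A mouse zygote begins with mRNA made by the oocyte. During the 1-cell and 2-cell stages most of this maternal mRNA is degraded while the embryo's own genome is switched on, with the main wave of transcription at the 2-cell stage. An embryo that fails to divide may therefore hold maternal mRNA, newly made zygotic mRNA, or both. Poly(A) RNA of lysed embryos was amplified as full-length cDNA and sequenced. Levels are given as CPM, read counts scaled to library size, after TMM normalisation, which sets libraries to a common level over most genes.

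Libraries within both groups stood apart from each other. Total counts were 16.06 M to 19.16 M in arrested libraries, and 5.6 M, 13.43 M and 7.34 M in fresh libraries 1, 2 and 3. In fresh libraries 1 and 3 no gene with at least 1 kb of exon exceeded 2099 and 2218 counts per kb, against 149659 in fresh library 2, 126511 to 205228 in WT 1-cell libraries and 496937 to 545090 in arrested libraries. This ceiling flattened the scale gradually. Over 4150 genes at 1 to 5 CPM per kb in fresh library 2, the median ratio to that library was 1.27 in fresh library 1 and 1.4 in fresh library 3, and over 103 genes at 500 CPM per kb or more it was 0.0959 and 0.0756. Abundant mRNAs thus read lower in fresh libraries 1 and 3 than in fresh library 2, and 3521 of the 23656 genes tested lay above 10% of the ceiling. Arrested library 1 resembled the fresh embryos: its Spearman correlation of log2 (CPM + 1) over all tested genes was 0.842 to 0.847 with fresh libraries and 0.563 to 0.656 with het 2-cell libraries. Arrested library 2 showed the opposite order, with 0.582 to 0.594 and 0.754 to 0.809, and arrested library 3 lay between, with 0.715 to 0.721 and 0.747 to 0.863. Het 2-cell library 1 gave the highest of the het 2-cell values with each arrested library (0.656, 0.809 and 0.863). The libraries all share the same genes and protocol, so these values are descriptions.

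Eif4enif1 itself (ENSMUSG00000020454.17, chromosome 11, 3202392 to 3244588 on mm10, plus strand) was measured at 72.1, 69.9 and 69.2 CPM in fresh libraries. It was at 110, 28.5 and 62.7 CPM in arrested libraries 1, 2 and 3, which straddle the fresh values. The log2 difference was -0.07 (SE 0.409, n = 3 and 3, edgeR adjusted p = 0.935), and without arrested library 1 it was -0.65 (adjusted p = 0.208). Some of its reads may belong to Drg1, which overlaps it. Het 2-cell embryos held 45.3 ± 8.61 CPM and WT 1-cell embryos 153 ± 22.4 CPM (SD, n = 3).

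Arrested embryos carried more of 2358 genes and less of 925 genes than fresh embryos at an edgeR adjusted p under 0.05, which is 9.97% and 3.91% of the 23656 genes tested, and the median log2 difference over all of them was 0.28. Of the 2358 raised genes 843 had no count in any fresh library. The rise was not shared evenly. Arrested libraries 2 and 3 lay above every fresh library for 2327 and 2349 of these genes, arrested library 1 for 1206, and in arrested library 1 a further 161 lay below every fresh library. Of the 925 lowered genes 920, 921 and 921 lay below every fresh library in arrested libraries 1, 2 and 3. Both sets were called on these same libraries, which favours genes that all arrested libraries share, so these counts do not measure how far the libraries agree. Over all genes tested, 9.42% lay higher in every arrested than in every fresh library and 16.0% lower. These shares, and the 9.97% and 3.91% called, are the background for the counts of gene lists below.

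These counts depend on which libraries enter. Without arrested library 1 there were 4365 higher and 1573 lower genes (17.0% and 6.11% of 25746). Without fresh libraries 1 and 3 only 1 fresh library remained and 19 and 85 were called, while without these and arrested library 1 the counts were 1690 and 809 (6.04% and 2.89% of 27967). Against the WT 1-cell libraries, which have no ceiling, arrested embryos were higher in 3338 and lower in 1286 genes (14.1% and 5.44%). The adjusted p-values use a spread shared by all 5 embryo groups: with only these 6 libraries in the fit, edgeR called 0 genes in either direction, 3197 of 17310 had an unadjusted p under 0.05, and DESeq2 called 1343 higher and 848 lower. Of the 129 called genes that are singled out by the naming rule, 128 kept their call without arrested library 1, 106 without it and the 2 capped fresh libraries, 18 with fresh library 2 alone against all 3 arrested libraries, and all 129 with DESeq2, in every case with the same direction. The named genes were picked on these same libraries, many with no overlap of the groups, so their shared direction is no independent support. Strand of counting is not stated, so the counts of Kpna7, Plk1, Smc1a, Txnrd1, mt-Nd5, Sf3b3, Patl2, Pabpn1l, Hist1h2aa, Setdb1 and Xpa, which overlap other annotated genes, may include reads of those genes. Since no label ties a replicate to its own animal, the p-values cover only the spread between these libraries, which may be technical.

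The genes raised most were transcripts of the 2-cell embryo that fresh embryos did not contain. Trim43a, a member of the TRIM ubiquitin ligase family, had no count in any fresh library and stood at 4.33, 340 and 127 CPM in arrested libraries 1, 2 and 3. Obox6, a homeobox gene of the oocyte and early embryo family whose members take part in zygotic genome activation, was at 3.77, 203 and 144 CPM. Crxos, another homeobox gene expressed at this stage, was at 1.41, 157 and 78.7 CPM. All 3 arrested libraries lay above the fresh ones, but arrested library 1 by a few CPM only. Against the floor of 3 counts over the fresh group, the pooled arrested level was at least 2460-fold higher for Trim43a, at least 1730-fold for Obox6 and at least 1210-fold for Crxos, with edgeR adjusted p of 0.00183, 0.00188 and 0.00362. In the het 2-cell libraries the same genes were higher still, at 474, 845 and 968 CPM for Trim43a, although the difference between arrested and het 2-cell embryos missed the threshold (log2 -2.28, adjusted p = 0.146).

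Zfp352 (ENSMUSG00000070902.5, chromosome 4, 90218820 to 90225702, plus strand), a zinc-finger gene known for its burst of expression in the 2-cell embryo, was likewise without counts in fresh libraries. It reached 4.8, 89.5 and 184 CPM in arrested libraries and 270, 193 and 85.7 CPM in het 2-cell libraries. It was at least 1240-fold higher in arrested than in fresh embryos (adjusted p = 0.00205), and its arrested and het 2-cell values overlapped. Its promoter is shown because it carries in dense repeat the core GGATTA or its reverse complement, the letters recognised by homeodomain proteins of the CRX and OBOX type. A search of the 250 bases before each start site in the RefSeq promoter table (GRCm38.p6, both strands, 32851 promoters) found this core in 6.25% of promoters. Counted by gene, 7.21% of genes held it in at least 1 promoter. Of the 10 genes raised most, 7 had a promoter in the table used, and 2 of these 7 held it, Zfp352 with 9 copies and Guca1a with 1. No other promoter in the table had 9 or more copies of the core. The core was not the only motif searched. Other common promoter motifs, searched in the same way, were held by 1, 1 and 0 of these 7 genes. Of all genes, 37.5%, 14.3% and 6.86% held them. The core is thus the motif with the highest count among those searched, and whether 2 of 7 exceeds its background was not tested. The promoter of Gal, a gene that rose without the core, is given beside those of Zfp352 and Guca1a. Capitals mark the core on either strand, and each sequence runs 5′ to 3′ on the gene's own strand, ending at the base before the start site.
Zfp352, chr4:90218570-90218819, plus strand: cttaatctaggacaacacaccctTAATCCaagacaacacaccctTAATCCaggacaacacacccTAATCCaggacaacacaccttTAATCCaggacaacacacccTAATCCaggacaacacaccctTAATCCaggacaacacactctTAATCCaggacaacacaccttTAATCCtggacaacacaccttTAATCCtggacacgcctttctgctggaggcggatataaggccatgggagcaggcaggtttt
Guca1a, chr17:47400607-47400856, minus strand: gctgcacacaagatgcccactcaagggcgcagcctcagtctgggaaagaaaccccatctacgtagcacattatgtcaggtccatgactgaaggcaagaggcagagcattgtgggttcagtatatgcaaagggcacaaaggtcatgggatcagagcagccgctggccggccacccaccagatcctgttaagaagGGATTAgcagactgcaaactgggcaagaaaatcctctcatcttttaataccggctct
Gal, chr19:3414545-3414794, minus strand: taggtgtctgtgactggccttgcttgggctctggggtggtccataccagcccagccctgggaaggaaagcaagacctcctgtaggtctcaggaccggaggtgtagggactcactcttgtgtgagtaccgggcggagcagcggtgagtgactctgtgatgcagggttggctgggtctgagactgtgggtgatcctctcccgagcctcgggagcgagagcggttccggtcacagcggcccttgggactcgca

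The other genes of this group have varied roles. Cited1, a transcriptional co-regulator, was at 2.45, 292 and 68.1 CPM in arrested libraries (at least 1950-fold higher, adjusted p = 0.00217). Dkkl1, which encodes a secreted protein related to the Dickkopf family, was at 3.77, 97 and 62.2 CPM (at least 810-fold). Bambi, a decoy receptor of the TGF-beta family, was at 6.59, 87.5 and 43.3 CPM (at least 691-fold). Gal, the neuropeptide galanin, was at 3.48, 76 and 56.4 CPM (at least 666-fold), and Guca1a, an activator of guanylate cyclase, and Cst6, a secreted cystatin, were at least 612-fold and 558-fold higher. For Cited1, Dkkl1, Bambi, Gal and Cst6 the log2 difference from het 2-cell embryos lay between -0.99 and 0.33, with adjusted p of 0.518 or more. Arrested library 1 was the lowest arrested library for all 10 genes, and none of the 10 had a count in a fresh library.

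**Figure D1:**
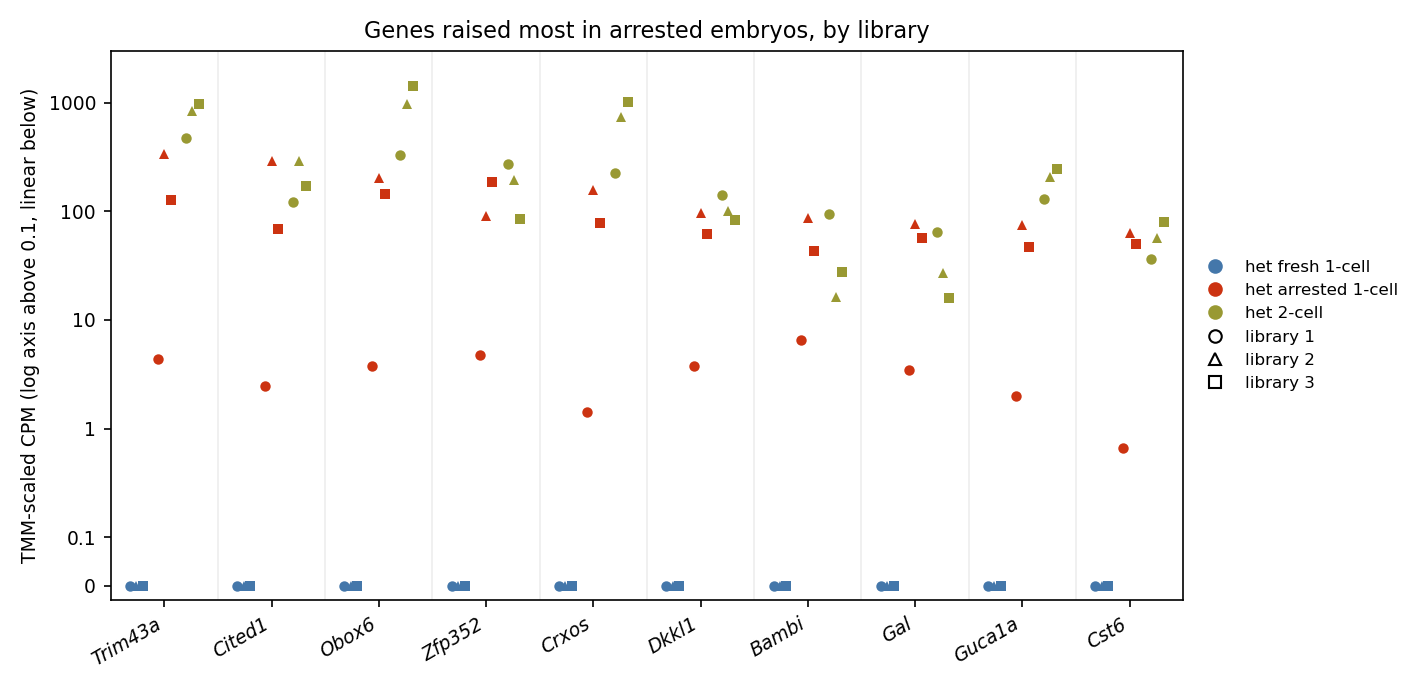
TMM-scaled CPM (log axis above 0.1) of the 10 genes raised most in arrested against fresh het 1-cell embryos, one point a library for fresh, arrested and het 2-cell embryos, with the marker shape giving the library number. Fresh libraries sit at 0, arrested library 1 between 0.659 and 6.59 CPM, and arrested libraries 2 and 3 between 43.3 and 340 CPM.

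Multicopy 2-cell genes, a list that holds Zfp352 and the Zscan4, Tcstv, Usp17l, Tdpoz and eIF1A-like families, mostly rose. The list was chosen with earlier results of these data known, so its rise is a description and not independent support. Of 40 members tested, 33 rose and 0 fell, and the median log2 difference was 6.28 (5.85 with genes absent from fresh libraries set to their lower bound), against 0.28 for all genes. The median member exceeded the fresh mean by 0.87, 5.16 and 4.77 on the log2 (CPM + 1) scale in arrested libraries 1, 2 and 3, and by 4.78 in het 2-cell embryos. In every arrested library 24 of the 40 lay above every fresh library and 1 lay below, where 9.42% and 16.0% of all genes did. Without arrested library 1, 34 of 40 rose. Reads of such near-identical copies cannot be assigned with certainty, so single members carry less weight than the family.

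Within this list the eIF1A-like genes of chromosome 12 had the smallest p-values, and they were present in arrested library 1 too. Gm2016 was at 0, 0.179 and 0.19 CPM in fresh and at 23, 481 and 291 CPM in arrested libraries (log2 10.94, SE 1.21, adjusted p = 0.000548). Gm4027 was at 0.0884, 0.0896 and 0.127 CPM in fresh and at 18.9, 208 and 320 CPM in arrested libraries (log2 10.69, adjusted p = 0.000548). Gm8300 was at 22.2, 83.3 and 94.9 CPM in arrested libraries and at or under 0.354 CPM in fresh ones. BB287469, with 2 counts over the fresh group, was at 18.7, 165 and 262 CPM, a ratio of 3020 (95% exact interval 836 to 25000, counting error only). For all 4 genes every arrested library was far above the fresh range. Het 2-cell libraries held 1.39 to 1.97 log2 units more, with adjusted p of 0.0685 or more.

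Single-copy genes activated around the 2-cell stage rose less uniformly, with 14 of 35 higher, 3 lower and a median log2 difference of 2.35. The pluripotency-associated Zfp42 (Rex1) went from 0.796, 0.717 and 0.317 CPM to 5.84, 54 and 16.4 CPM (log2 5.39, SE 0.869, adjusted p = 0.00247). Id2, an inhibitor of basic helix-loop-helix factors, went from 6.98, 3.31 and 4.31 to 38.5, 157 and 243 CPM (log2 4.91, adjusted p = 0.00321). Eif1a went from 1.5, 0.269 and 1.84 to 8.19, 57.6 and 69.3 CPM (log2 5.2). Neither group overlapped the other for these 3 genes, and arrested library 1 was again the lowest of the arrested libraries.

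Among 21 tested genes that are known to induce or accompany the 2-cell program, 5 rose and 1 fell. Dppa4, a chromatin protein that acts upstream of the program's activator Dux, went from 0.884, 1.16 and 0.38 to 2.83, 160 and 65.9 CPM (log2 6.57, SE 1.08, adjusted p = 0.00262). Nfya, a subunit of the CCAAT-binding factor NF-Y and a maternal contributor to zygotic activation, went from 41.8, 33.4 and 50 to 5.56, 15 and 11.1 CPM (log2 -1.98, SE 0.42, adjusted p = 0.00831). It was lower than in het 2-cell embryos too (log2 -1.42, adjusted p = 0.046). The list median was 0.34, close to that of all genes, so Dppa4, Obox6 and Crxos do not speak for the list as a whole.

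The extent of genome activation was read from a set that used no het library. In the WT embryos alone, 2486 genes were at least 10 CPM in 2-cell embryos and more than 3 log2 units above 1-cell embryos with an adjusted p under 0.05. Of these WT-rising genes 1172 (47.1%) were higher and 3 lower in arrested than in fresh het embryos, with a median log2 difference of 2.71. Their median level was 1.41, 1.08 and 1.52 CPM in fresh libraries, 1.04, 20.4 and 12.4 CPM in arrested libraries and 23.7, 34.7 and 39.2 CPM in het 2-cell libraries. The share of the set at 1 CPM or more was 50.5%, 94.0% and 96.4% in arrested libraries, against 50.7% to 58.2% in fresh ones. Arrested library 1 lay below every fresh library in its median, its median ratio to the fresh mean gene by gene was 0.498, and 33.5% of the set lay below 25% of that mean (9.57% to 12.7% in fresh libraries), while arrested libraries 2 and 3 lay between fresh 1-cell and het 2-cell embryos. Without arrested library 1, 1867 of the set were higher and 7 lower. Compared with het 2-cell embryos, 489 of the set were lower and 0 higher in arrested embryos, where all genes gave 4.55% lower and 3.85% higher.

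Maternal mRNA in arrested embryos lay, in the median, between the levels of fresh 1-cell and het 2-cell embryos. A set of 1134 genes was at least 10 CPM in WT 1-cell embryos and more than 3 log2 units lower in WT 2-cell embryos. Of these WT-cleared genes 161 (14.2%) were lower and 0 higher in arrested than in fresh het embryos, with a median log2 difference of -1.1. The median level was 57, 59.5 and 53.1 CPM in fresh libraries, 36.5, 14.1 and 20.2 CPM in arrested libraries and 9.31, 5.71 and 4.09 CPM in het 2-cell libraries. Members below 25% of their mean fresh level made up 14.0%, 51.0% and 32.1% in arrested libraries 1, 2 and 3 and 68.9%, 88.4% and 96.6% in het 2-cell libraries. Every arrested library therefore lay below the fresh and above the het 2-cell range in its median, with arrested library 1 nearest to fresh. Arrested embryos were higher than het 2-cell embryos for 359 of the set and lower for 0, where all genes gave 3.85% higher and 4.55% lower. Of these 1134 genes 643 lay above 10% of the ceiling in fresh libraries 1 and 3. Without arrested library 1 and the capped libraries 289 were lower. In bulk RNA, fewer cells and less RNA per cell cannot be told apart, and all values are shares of a library.

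**Figure D2:**
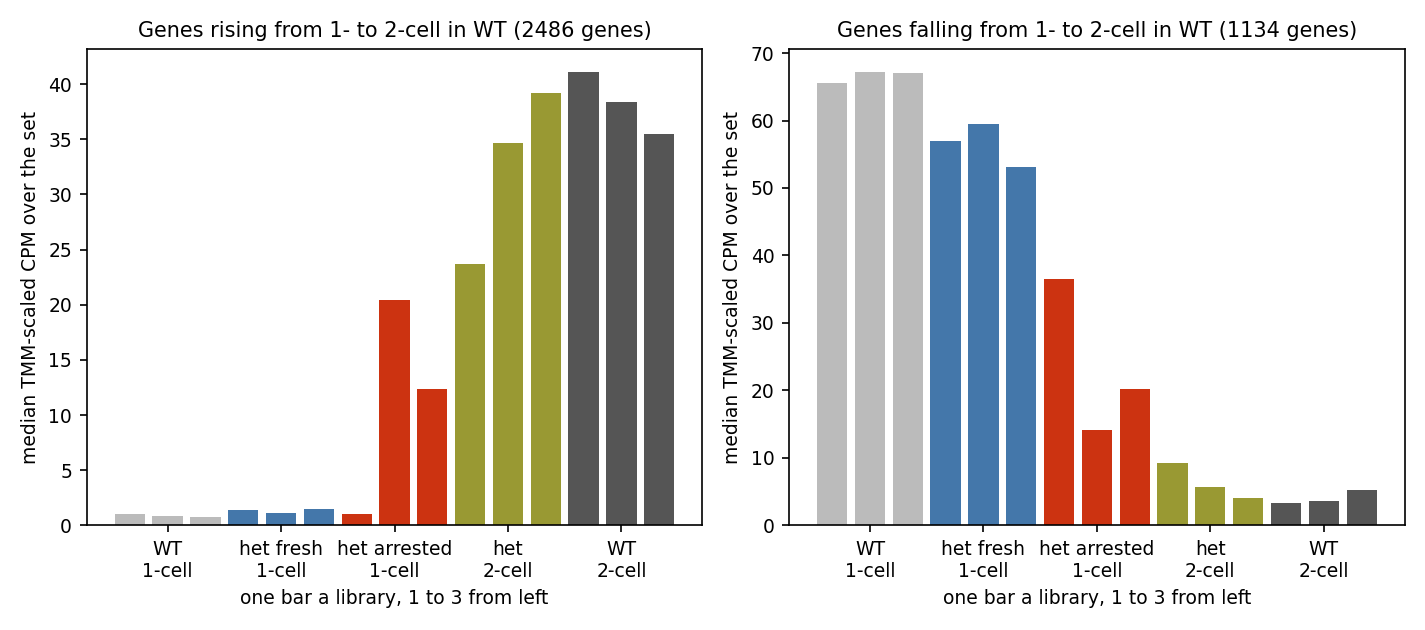
Median TMM-scaled CPM, one bar a library, of 2486 genes that rise (left) and 1134 genes that fall (right) from the 1-cell to the 2-cell stage in WT embryos. Arrested library 1 has a median of 1.04 CPM on the left, below the fresh libraries, while arrested libraries 2 and 3 are at 20.4 and 12.4 CPM, and on the right the 3 arrested libraries stand between the fresh and het 2-cell libraries.

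Lists of maternal genes differed from each other. Of 37 tested genes of the subcortical maternal complex and other maternal-effect genes 8 fell and 0 rose, with a median log2 difference of -0.87, and 29 of the 37 lay above 10% of the ceiling. Padi6, a deiminase-family protein required for the cytoplasmic lattices of the egg, went from 98, 109 and 98.5 to 30, 28.4 and 22.9 CPM (log2 -1.91, SE 0.307, adjusted p = 0.00245). Dnmt1, the maintenance DNA methyltransferase, went from 115, 197 and 130 to 21, 3.55 and 11.2 CPM (log2 -3.63, SE 0.582, adjusted p = 0.00245). Zfp57, which protects imprinted methylation, went from 182, 682 and 153 to 52.1, 34.9 and 44.4 CPM (log2 -2.95, adjusted p = 0.00615), and Nlrp9b from 140, 177 and 138 to 41.8, 9.16 and 32.8 CPM (log2 -2.44, adjusted p = 0.00919). All arrested libraries lay below all fresh libraries for these 4 genes, arrested library 1 included. Dnmt1, Padi6 and Zfp57 differed from het 2-cell embryos by 0.48, -0.83 and 0.42 log2 units with adjusted p of 0.606, 0.089 and 0.679, and Nlrp9b was 1.87 higher than there (adjusted p = 0.0396).

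Genes of the zona pellucida, secreted proteins and fertilization gave 5 lower and 0 higher of 16, with a median of -0.86 and 14 members above 10% of the ceiling. Plat, tissue plasminogen activator, whose mRNA is stored in the oocyte and translated at maturation, went from 209, 215 and 138 to 28.2, 39.5 and 37.9 CPM (log2 -2.41, SE 0.429, adjusted p = 0.00359). Astl, the egg protease ovastacin, fell by 3.08 on the log2 scale (adjusted p = 0.00631), and Izumo1r, the sperm receptor JUNO, fell by 2.37 (adjusted p = 0.0177). Zp1, a zona protein, went from 114, 115 and 90.7 to 45.7, 47.6 and 46 CPM (log2 -1.2, adjusted p = 0.0258). Plat stayed above the het 2-cell level of 12.9, 14.8 and 7.43 CPM (log2 1.59, adjusted p = 0.0321), whereas the other 3 genes did not differ from it beyond the threshold.

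The most abundant oocyte-specific genes did not show a common shift against the 3 fresh libraries. Of 43 tested, 1 rose and 2 fell, and the median log2 difference was 0.71. With fresh library 2 as the only fresh library the median was -0.61, and it was -1.07 when arrested library 1 was also left out. Against the WT 1-cell libraries, which have no ceiling, 8 of the 43 were lower and 2 higher, where 5.44% and 14.1% of all genes were. Of the 43, 40 lay above 10% of the ceiling. The gene that rose, Rfpl4b, was near silence in fresh embryos (0, 0 and 0.38 CPM against 7.91, 95.3 and 26.4 CPM). Kpna7, the oocyte importin alpha, fell from 170, 178 and 138 to 62, 16.9 and 50.5 CPM (log2 -1.91, adjusted p = 0.0165). Oocyte transcription factors gave 1 higher and 1 lower of 15, with a median of 0.04.

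Of 49 tested spindle, kinetochore and anaphase genes 12 fell and 0 rose, with a median of -0.89, where 3.91% of all genes fell and 9.97% rose. Of 33 genes of mitotic entry 3 fell and 2 rose, with a median of 0.03. Mos (chromosome 4, 3870657 to 3872105, minus strand), the kinase that holds the mature egg in metaphase arrest, went from 115, 130 and 78.7 to 4.9, 0.978 and 9.58 CPM (log2 -4.39, SE 0.706, adjusted p = 0.00245). Bub1b, the spindle checkpoint protein BUBR1, went from 174, 211 and 149 to 12.6, 0.566 and 8.34 CPM (log2 -4.64, SE 0.769, adjusted p = 0.00263). Smc3, a core subunit of cohesin, went from 202, 308 and 158 to 21.5, 17 and 25.1 CPM (log2 -3.39, SE 0.391, adjusted p = 0.000602). All 3 arrested libraries were far below the fresh range, and with fresh library 2 as the only fresh library the adjusted p was 0.0372 for Mos, 0.0442 for Bub1b and 0.00522 for Smc3. Mos and Bub1b were also low in het 2-cell embryos, at 1.97 to 2.46 and 5.96 to 11.5 CPM. Smc3 was at 36.2, 43.1 and 61.6 CPM there, above every arrested library (log2 -1.15, adjusted p = 0.0595).

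The spindle list also holds Anapc4, a subunit of the anaphase-promoting complex, which fell by 3.07 (adjusted p = 0.00397), and the cohesin subunit Smc1a, which fell by 2.54 (adjusted p = 0.00487). Of the mitotic entry genes, the phosphatase Cdc25a went from 34.4, 66.2 and 57.1 to 5.27, 11.3 and 6.1 CPM (log2 -2.79, adjusted p = 0.00298), and the kinase Plk1 from 86.6, 88.5 and 88.4 to 23.6, 14.7 and 14.2 CPM (log2 -2.33, adjusted p = 0.00419). Cdc25a and Plk1 differed from het 2-cell embryos by 0.14 and -0.34 log2 units (adjusted p of 0.889 and 0.644).

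Replication and G1/S genes gave 7 lower and 3 higher of 48 and a median of -0.3, where 3.91% and 9.97% of all genes were called lower and higher. Mcm4, a subunit of the replicative helicase, went from 141, 134 and 109 to 25.3, 4.58 and 21.6 CPM (log2 -2.9, SE 0.579, adjusted p = 0.00615). Ccne1, cyclin E1, which drives entry into S phase, went from 31.4, 28.2 and 43.7 to 44.5, 274 and 173 CPM (log2 2.25, SE 0.526, adjusted p = 0.0129). Ccnd2, cyclin D2, had no fresh count and was at 2.45, 38.5 and 23.7 CPM in arrested libraries (at least 320-fold, adjusted p = 0.00436). For Ccne1 arrested library 1 lay just above the highest fresh library.

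**Figure D3:**
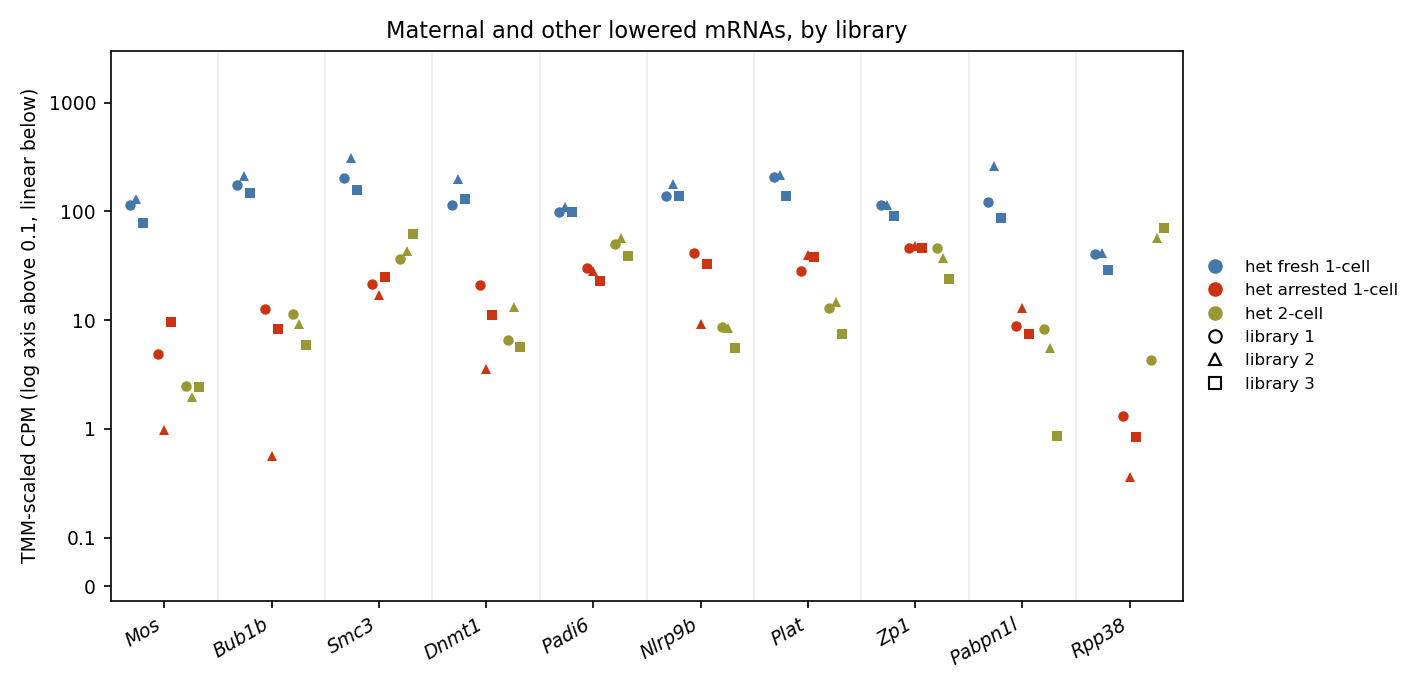
TMM-scaled CPM (log axis above 0.1) of 10 genes that were lower in arrested than in fresh het 1-cell embryos, one point a library, with het 2-cell libraries beside them and the marker shape giving the library number. For all 10 the arrested libraries lie below the fresh libraries, and for Smc3, Padi6 and Rpp38 they also lie below all 3 het 2-cell libraries.

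Of 29 tested DNA damage response and repair genes 8 fell and 1 rose, the others were not called, and the median was -0.87 with 6 members above 10% of the ceiling. Fancd2, of the Fanconi anaemia pathway, went from 25.5, 17.4 and 30.1 to 1.79, 0.463 and 2.32 CPM (log2 -4.01, SE 0.66, adjusted p = 0.00262). It was also lower than in het 2-cell embryos, which held 4.96, 19.2 and 13.8 CPM (log2 -3.07, adjusted p = 0.0149), and its reads may include those of the overlapping Fancd2os. Atm, the kinase that signals double-strand breaks, rose from 1.86, 1.16 and 3.04 to 4.52, 53.4 and 40 CPM (log2 4, SE 0.713, adjusted p = 0.0036) and was at 65.6 to 101 CPM in het 2-cell embryos.

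Of 35 tested p53 targets and apoptosis genes 14 rose, 0 fell and the others were not called, with a median of 1.15. Of the 35, 6 lay higher in every arrested than in every fresh library. Over all genes tested 9.97% rose, 3.91% fell and 9.42% lay higher in every arrested than in every fresh library. The median member moved by 0, 1.08 and 0.93 in arrested libraries 1, 2 and 3 and by 1.54 in het 2-cell embryos on the log2 (CPM + 1) scale. Mcl1, an anti-apoptotic BCL2-family protein, went from 0.354, 0.627 and 1.58 to 10.4, 24.1 and 15.8 CPM (log2 4.25, SE 0.648, adjusted p = 0.00205). Gadd45g, a growth-arrest and stress gene, went from 0, 0.269 and 0.0634 to 4.71, 81 and 37.2 CPM (log2 8.5, adjusted p = 0.00268). Its relative Gadd45b was at least 239-fold higher and Bad, a pro-apoptotic BCL2-family protein, at least 155-fold higher, with no fresh count for either and no Bad count in arrested library 1. The raised members include genes known to act against cell death and genes known to promote it. Against het 2-cell embryos 1 of the 35 was higher and 0 lower, near the 3.85% and 4.55% of all genes.

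Stress genes split. Of 36 genes of the stress and unfolded protein response 5 rose and 5 fell, where 9.97% of all genes rose and 3.91% fell. Xbp1, a transcription factor of this response, had 2 counts over the fresh group and was at 2.26, 16.7 and 12.9 CPM in arrested libraries (ratio 229, 95% exact interval 63.1 to 1900, adjusted p = 0.00754). Dnajb9, a chaperone of the endoplasmic reticulum, went from 23, 20.1 and 24.9 to 25.4, 604 and 298 CPM (log2 3.77, adjusted p = 0.00948). Ern1, which encodes the sensor IRE1, went from 189, 179 and 164 to 47.6, 28.9 and 28.7 CPM (log2 -2.34, adjusted p = 0.00273). Heat shock genes gave 4 higher and 0 lower of 22 with a median of 0.17. Hspb1 was at 9.64, 5.11 and 8.62 CPM in fresh and at 8.19, 583 and 110 CPM in arrested libraries (log2 4.91, adjusted p = 0.00827), so its rise rests on arrested libraries 2 and 3.

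Antioxidant genes gave 8 higher and 1 lower of 28, with a median of 0.71. Prdx4, a peroxiredoxin, went from 0.354, 0.358 and 1.84 to 4.33, 192 and 51.5 CPM (log2 6.54, SE 1.14, adjusted p = 0.00419). Gpx1, glutathione peroxidase, went from 25.6, 11.9 and 24.7 to 52.5, 309 and 174 CPM (log2 3.11, adjusted p = 0.00469). Txnrd1, thioredoxin reductase, fell from 56.9, 44.1 and 56.5 to 3.86, 11.7 and 4.17 CPM (log2 -2.99, adjusted p = 0.00232). None of the 28 differed from het 2-cell embryos at the threshold in either direction. Immediate-early and MYC network genes gave 7 higher and 1 lower of 25, among them Klf2, which went from 0.177, 0.358 and 0.761 to 2.17, 18.5 and 6.64 CPM (log2 4.35, adjusted p = 0.0169).

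Mitochondrially encoded mRNAs were high in every arrested library, including arrested library 1, in which the WT-rising genes had a median of 1.04 CPM. They took 15.73%, 16.2% and 17.32% of the counts in arrested libraries 1, 2 and 3, against 0.44%, 3.68% and 0.34% in fresh libraries. The groups did not overlap (exact two-sided permutation test, p = 0.1, the smallest that 3 against 3 libraries allow, 0.2 after adjustment over 8 measures). Libraries without a ceiling gave a smaller contrast: fresh library 2 held 3.68% and WT 1-cell libraries 2.35% to 2.58%. Het 2-cell libraries, cultured equally long, held 13.55% to 19.77% and WT 2-cell libraries 9.23% to 10.23%.

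All 13 mitochondrially encoded subunits of the respiratory chain and ATP synthase lay higher in every arrested than in every fresh library, where 9.42% of all genes did, and 10 passed the test, with a median log2 difference of 3.71. All 13 exceed 10% of the ceiling, and with fresh library 2 as the only fresh library the median log2 difference was 2.35. The complex I subunit mt-Nd3 went from 33.5, 75.3 and 23.5 to 448, 768 and 505 CPM (log2 3.7, SE 0.539, adjusted p = 0.00187). mt-Nd5 was at 172, 492 and 130 CPM in fresh and at 3110, 2090 and 3910 CPM in arrested libraries (log2 3.52, adjusted p = 0.00296). Against WT 1-cell embryos the differences were 3.17 for mt-Nd3 and 2.45 for mt-Nd5 (adjusted p of 0.00194 and 0.0102). Of the 13, 9 were higher than in WT 1-cell embryos, against 14.1% of all genes. Against het 2-cell embryos none of the 13 passed in either direction, and mt-Nd3 and mt-Nd5 differed by 0.46 and 0.48 (adjusted p of 0.588 and 0.624).

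**Figure D4:**
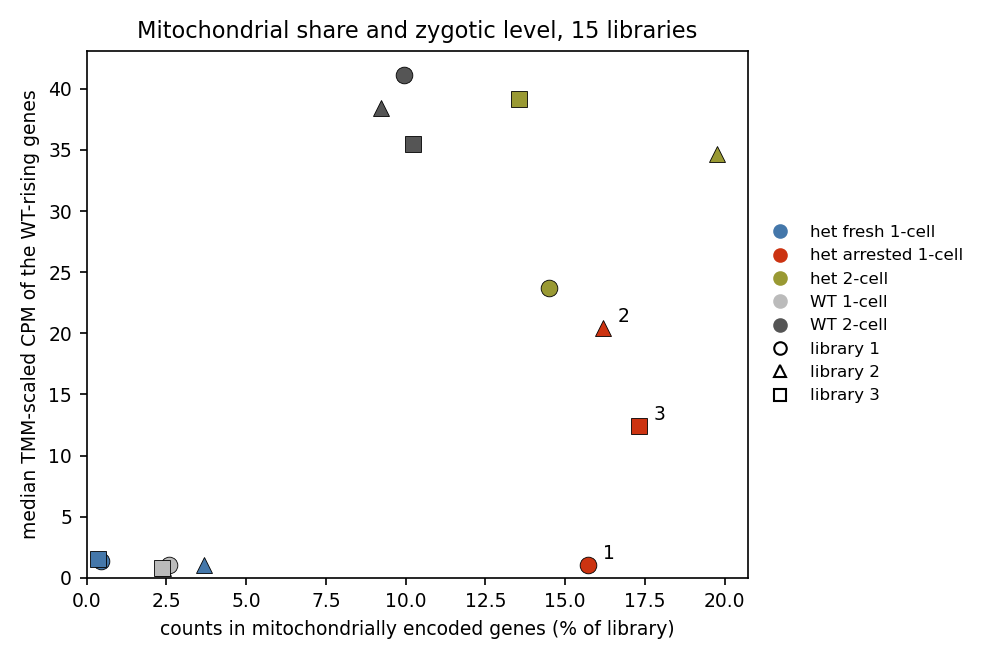
Share of counts in mitochondrially encoded genes (horizontal axis, % of a library) against the median TMM-scaled CPM of the 2486 WT-rising genes (vertical axis) in all 15 embryo libraries, with the arrested libraries numbered. The 3 arrested libraries share a mitochondrial share of 15.73% to 17.32% and spread from 1.04 to 20.4 CPM on the vertical axis.

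Of 75 nuclear-encoded respiratory subunits tested 5 rose and 4 fell, with a median of 0.57, where 9.97% of all genes rose and 3.91% fell. Of the 75, 18 were lower than in het 2-cell embryos and 0 higher, against 4.55% and 3.85% of all genes. The list summed to 4080, 8940 and 9910 CPM in het 2-cell libraries 1, 2 and 3 and to 3200 to 4690 CPM in arrested libraries. Het 2-cell library 1 thus lay within the arrested range. Without arrested library 1, 17 of the 75 rose and 5 fell. Cox7b, of cytochrome c oxidase, went from 6.98, 4.75 and 8.69 to 27.3, 112 and 64.8 CPM (log2 3.32, SE 0.493, adjusted p = 0.00188). Ndufs4, of complex I, fell from 56.8, 52.8 and 56 to 15.6, 16.7 and 8.19 CPM (log2 -2.03, SE 0.406, adjusted p = 0.00621).

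Genes of mitochondrial fission, fusion and mitophagy gave 3 higher and 1 lower of 33, near the 9.97% and 3.91% of all genes, with a median of 0.37. Gdap1, an outer-membrane protein that promotes mitochondrial fission, went from 128, 131 and 142 to 347, 230 and 313 CPM (log2 1.15, SE 0.362, adjusted p = 0.0468). It was also above the het 2-cell level of 133, 64.1 and 90.3 CPM (log2 1.63, adjusted p = 0.0183). Its call against fresh embryos was lost without arrested library 1 (log2 1.01, adjusted p = 0.0632), and against WT 1-cell embryos the log2 difference was 0.56 (adjusted p = 0.279). Oma1, the stress-activated protease that cleaves the fusion protein OPA1, fell from 62.4, 60.6 and 67.1 to 6.78, 0 and 3.01 CPM (log2 -4.3, SE 1.01, adjusted p = 0.0134). Fundc1, a mitophagy receptor, rose by 1.47 (adjusted p = 0.0422), and Trak2, an adaptor for mitochondrial transport, by 2.71 (adjusted p = 0.01). Genes of pyruvate use, the TCA cycle and glycolysis gave 5 higher and 0 lower of 40. Ldha, lactate dehydrogenase A, had no fresh count and was at 0.565, 68.5 and 24.3 CPM (at least 489-fold, adjusted p = 0.00419), and the pyruvate carrier Mpc2 was at 27.8, 23.9 and 24.3 CPM in fresh and 12, 313 and 134 CPM in arrested libraries (log2 2.6, adjusted p = 0.0288).

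Of 80 tested ribosomal protein genes 32 rose, 0 fell and the others were not called, with a median of 1.67. Over all genes tested 9.97% rose and 3.91% fell. Of the 80, 50 were lower than in het 2-cell embryos, against 4.55% of all genes. The median member moved by -0.37, 2.37 and 1.47 in arrested libraries 1, 2 and 3 and by 3.91 in het 2-cell embryos on the log2 (CPM + 1) scale. The list summed to 1280, 5770 and 3300 CPM in arrested libraries and to 7550, 24000 and 30400 CPM in het 2-cell libraries 1, 2 and 3. Rpsa, of the small subunit, went from 1.5, 1.34 and 0.761 to 6.4, 19.4 and 16.8 CPM (log2 3.57, SE 0.569, adjusted p = 0.00242), and het 2-cell libraries held 43.3, 125 and 122 CPM (log2 -2.76, adjusted p = 0.0124). Rps19 was at 3.18, 0.269 and 1.58 CPM in fresh and 3.67, 115 and 48.5 CPM in arrested libraries (log2 5.05, adjusted p = 0.00731). Without arrested library 1, 52 of the 80 rose. Many ribosomal protein genes have processed pseudogenes that can share their reads.

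Nucleolar and ribosome biogenesis genes gave 11 lower and 7 higher of 60, and the higher share was near the 9.97% of all genes. Of the 60, 17 were lower than in het 2-cell embryos, against 4.55% of all genes. Nop16 went from 0, 0 and 0.507 to 4.33, 68.4 and 51.7 CPM (log2 7.7, SE 1.3, adjusted p = 0.00273) but held 277 to 616 CPM in het 2-cell libraries (log2 -3.28, adjusted p = 0.0515). Wdr75, which acts in transcription of ribosomal RNA, fell from 84.3, 128 and 78.7 to 8.29, 15.8 and 18.5 CPM (log2 -2.77, adjusted p = 0.00487) and was lower than in het 2-cell embryos (log2 -2.21, adjusted p = 0.0208). Polymerase II and core splicing genes gave 5 higher and 7 lower of 54, and 17 lower than in het 2-cell embryos. Their sum was 6010 CPM in het 2-cell library 1, within the 4970 to 8320 CPM of arrested libraries. It was 9500 and 12500 CPM in het 2-cell libraries 2 and 3. Sf3a3 and Sf3b3, subunits of the splicing factors SF3a and SF3b, fell by 2.58 and 3.26 (adjusted p of 0.00569 and 0.0046) and were lower than in het 2-cell embryos by log2 -2.2 and -2.72 (adjusted p of 0.0191 and 0.0173).

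**Figure D5:**
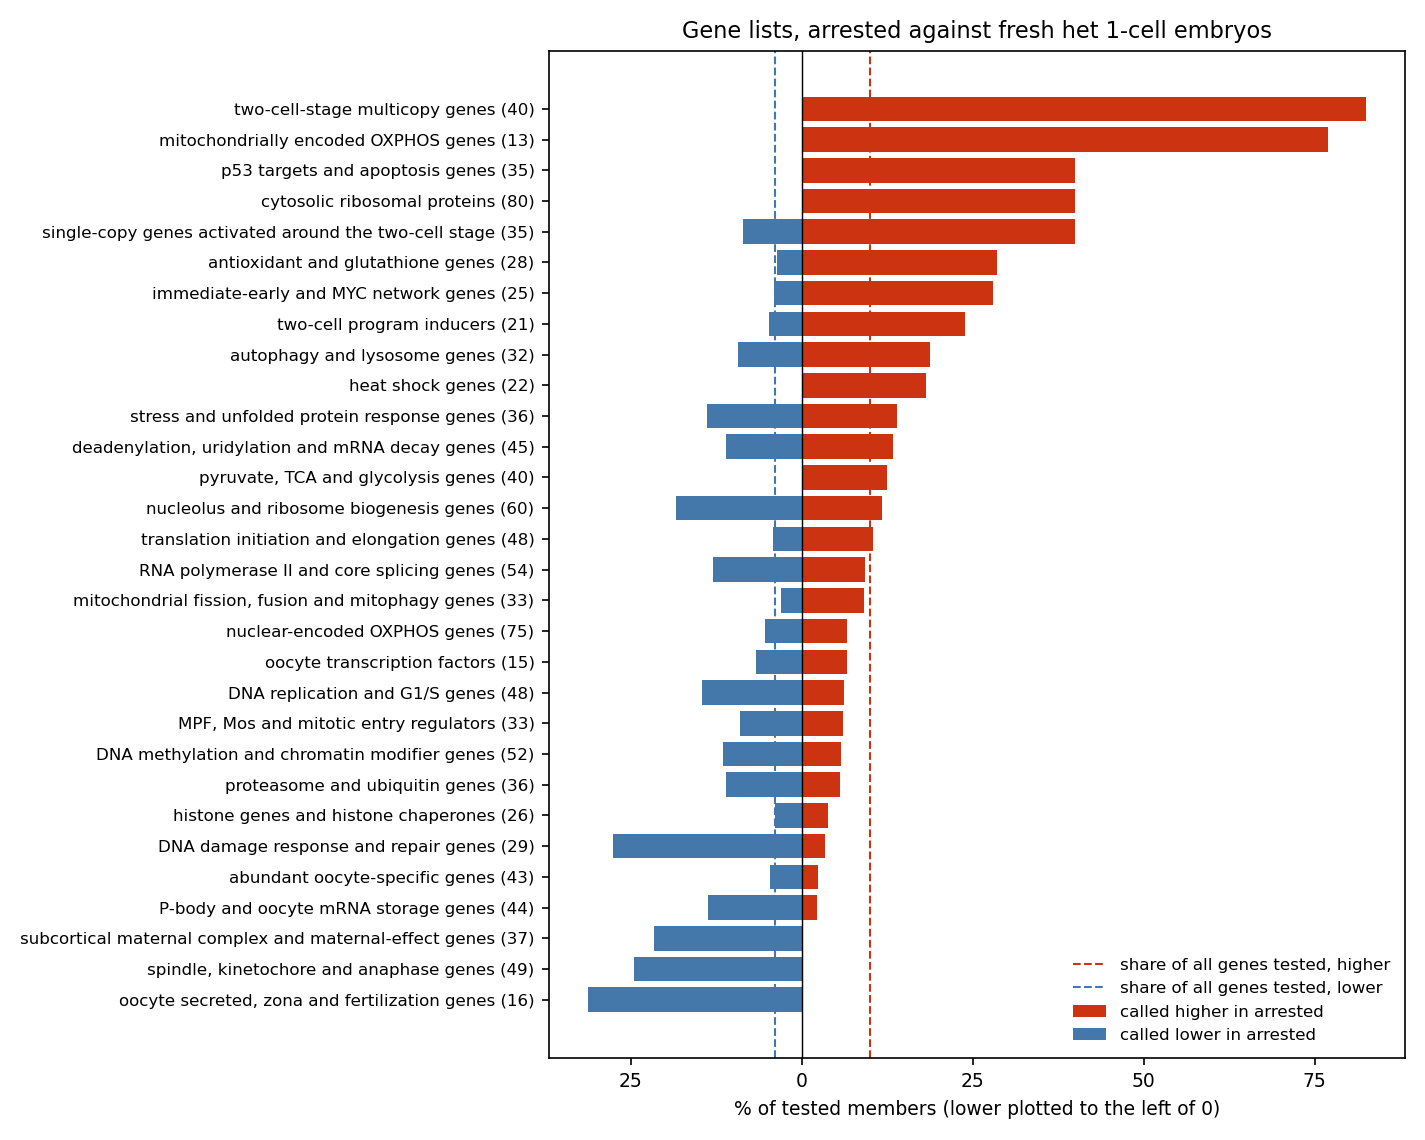
Percentage of tested members of each of 30 gene lists called higher (red, right) or lower (blue, left) in arrested than in fresh het 1-cell embryos, with the number tested in brackets and dashed lines at the shares of all genes tested (9.97% and 3.91%). Multicopy 2-cell genes and mitochondrially encoded genes have the highest shares called higher, and genes of the zona and fertilization, DNA damage, spindle and maternal-effect lists have the highest shares called lower.

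Leaving out arrested library 1 raised the number called higher over all genes tested from 2358 (9.97%) to 4365 (17.0%). In several lists the number also rose by more than 1.5 times, so such a rise is not particular to them. It went from 5 to 10 for the stress response, from 7 to 16 for nucleolar genes and from 5 to 10 for polymerase II and splicing. For translation factors it went from 5 to 12, and for pyruvate and TCA genes from 5 to 9. Replication genes and mitochondrial fission and fusion genes each went from 3 to 6.

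Lists of mRNA storage and decay genes, the machinery to which 4E-T belongs, had calls in both directions and medians near 0. Over all genes tested 9.97% were called higher and 3.91% lower. P-body and oocyte mRNA storage genes gave 6 lower and 1 higher of 44, with a median of -0.19. Cpeb1, which controls polyadenylation of stored mRNA, went from 54.5, 51.1 and 73 to 12.5, 7.52 and 16.1 CPM (log2 -2.31, SE 0.41, adjusted p = 0.00355), and Patl2, a maternal RNA-binding protein, from 26, 15.1 and 26.6 to 2.73, 6.64 and 4.87 CPM (log2 -2.24, adjusted p = 0.0134). Stau1, an RNA-binding protein, fell by 1.61 (adjusted p = 0.0209). In the list of deadenylation, uridylation and decay genes 6 rose and 5 fell of 45, with a median of 0.12. Pabpn1l, an egg poly(A)-binding protein that serves maternal mRNA clearance, went from 121, 263 and 87 to 8.76, 12.9 and 7.42 CPM (log2 -4.02, SE 0.683, adjusted p = 0.00286). Tut4, a terminal uridylyl transferase that marks mRNA for decay, went from 0.354, 0 and 0 to 0.659, 10.3 and 4.79 CPM (log2 5.48, adjusted p = 0.013).

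Translation factors gave 5 higher and 2 lower of 48, near the 9.97% and 3.91% of all genes. Eif4ebp1, an inhibitor of eIF4E, was at 6.98, 5.2 and 3.93 CPM in fresh and 4.14, 148 and 56.8 CPM in arrested libraries (log2 3.7, SE 0.832, adjusted p = 0.0109). Eif4g3, a scaffold partner of eIF4E, fell from 21, 26.8 and 34.9 to 5.27, 5.66 and 8.58 CPM (log2 -2.08, SE 0.431, adjusted p = 0.00747). Neither differed from het 2-cell embryos beyond the threshold (adjusted p of 0.527 and 0.942).

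Chromatin and proteostasis lists had calls in both directions, where 9.97% of all genes were called higher and 3.91% lower. Histone genes and chaperones gave 1 higher and 1 lower of 26. The variant histone gene H2afz rose from 62.9, 106 and 51.9 to 265, 973 and 665 CPM (log2 3.11, SE 0.587, adjusted p = 0.00483), and Hist1h2aa, a histone H2A gene of germ cells, fell from 19.8, 28.3 and 18.3 to 1.88, 0 and 0.618 CPM (log2 -4.78, adjusted p = 0.0134). DNA methylation and chromatin modifier genes gave 3 higher and 6 lower of 52, with Setdb1, a histone H3 lysine methyltransferase, lower by log2 -2.04 (adjusted p = 0.00263). Autophagy and lysosome genes gave 6 higher and 3 lower of 32, with a median of 0.16. The lysosomal protease gene Ctsl went from 4.07, 0.985 and 2.6 to 5.27, 428 and 253 CPM (log2 6.48, SE 1.17, adjusted p = 0.00382). Proteasome and ubiquitin genes gave 2 higher and 4 lower of 36. Of the 36, 14 were lower than in het 2-cell embryos, against 4.55% of all genes. Psmc4, an ATPase of the proteasome, was lower than in fresh embryos (log2 -2.08, adjusted p = 0.0208) and than in het 2-cell embryos (log2 -3.16, adjusted p = 0.0112).

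The genes lowered most were partly low in het 2-cell embryos as well. Pde6b, a phosphodiesterase best known from rod photoreceptors, went from 17.8, 7.97 and 8.56 CPM to 0, 0 and 0.0773 CPM (a single count in the arrested group, ratio 0.00209, 95% exact interval 5.29e-05 to 0.0117, adjusted p = 0.003). Steap4, a metalloreductase, went from 18.7, 5.73 and 17.8 to 0.188, 0 and 0.232 CPM (log2 -6.69, SE 1.18, adjusted p = 0.00593). Sgo2b, a relative of the cohesin protector shugoshin 2, went from 31.7, 19.1 and 29.5 to 2.92, 0.0515 and 0 CPM (log2 -4.8, adjusted p = 0.0314). Het 2-cell libraries held at most 0.246 CPM of any of these 3 genes. Sbk3, Tsga10ip, Slc35f6, Coro1b and Zfp866 had log2 differences of -6.66, -6.12, -5.33, -5.9 and -6.57, with adjusted p between 0.00205 and 0.0364, and Coro1b and Zfp866 overlap other genes that may share their reads.

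Some mRNAs were lower in arrested embryos than in both neighbours in development. Both comparisons use the same arrested libraries, so they are not independent. At least 10 CPM in the higher of arrested and fresh embryos, a call in each comparison and no overlap of any library left 71 named genes (0.3% of those tested) lower than both and 5 (0.0211%) higher than both, a selection made after the values were seen. Rpp38, a protein subunit of RNase P and RNase MRP, which process tRNA and ribosomal RNA precursors, went from 40.5, 41.7 and 29.2 CPM in fresh to 1.32, 0.36 and 0.85 CPM in arrested libraries (log2 -5.49, SE 0.822, adjusted p = 0.002). Het 2-cell libraries held 4.28, 56.4 and 69.9 CPM (log2 -5.72, adjusted p = 0.00942), with the first of them close to the arrested range. Xpa, a nucleotide excision repair protein, was at 22, 22.9 and 18.5, then 0, 0.978 and 2.94, and 17.5, 37.4 and 35.8 CPM (log2 -4 and -4.52, adjusted p of 0.00812 and 0.0124). Pdcd11, a ribosome biogenesis factor, was lower by log2 -2.77 and -3.86 (adjusted p of 0.0251 and 0.0146). Without arrested library 1 and the capped libraries, only 1 fresh library remained. The log2 differences from fresh were then -6.22 for Rpp38, -3.67 for Xpa and -2.35 for Pdcd11, and Pdcd11 lost its call. Genes lower than both were thus not all robust to this omission.

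The 5 genes higher than both were Yeats4, Akr1cl, Gdap1, Apc and Cyb5r4. Yeats4, a reader subunit of chromatin remodelling and acetylation complexes, was at 92.8, 138 and 82.2 CPM in fresh, 353, 178 and 302 CPM in arrested and 107, 56.8 and 42.4 CPM in het 2-cell libraries (log2 1.41 and 2.01, adjusted p of 0.0373 and 0.0156). Apc, which restrains beta-catenin signalling, was at 83.8, 78.4 and 98.9, then 214, 156 and 218, and 87.3, 52.2 and 83.1 CPM (log2 1.17 and 1.4, adjusted p of 0.0416 and 0.0291). Against fresh embryos and without arrested library 1, Cyb5r4 and Apc kept their call (adjusted p of 0.0135 and 0.0428), and Yeats4, Akr1cl and Gdap1 did not (0.063, 0.0522 and 0.0632). None of the 5 kept its call without arrested library 1 and the capped libraries (adjusted p of 0.175 to 0.507), and Yeats4, at 41.3% of the ceiling, then had a log2 difference of 0.7.

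Markers of other cell types were checked because follicle, oviduct or blood cells can come along with embryos. Of 15 tested granulosa and cumulus markers 2 rose (Amhr2 and Tnfaip6), with a list median of 2.19, and the list summed to 62.3, 194 and 76 CPM in arrested libraries against 75.7 to 95.5 CPM in fresh ones. Of 23 granulosa markers found 16, 8 and 7 were at 0 in arrested libraries 1, 2 and 3 and 10 to 15 in fresh ones, the FSH receptor gene Fshr being at 0 in all arrested libraries. Of 9 oviduct markers 3 rose (Epcam, Krt8 and Krt18), with a list median of 3.57 and a sum of 23.1, 218 and 117 CPM in arrested, 33.9 to 48.6 CPM in fresh and 200 to 254 CPM in het 2-cell libraries. Ovgp1, oviductin, was at 0, 0 and 0.309 CPM in arrested and at 0.896 to 1.33 CPM in fresh libraries. Of 4 blood markers tested both alpha-globin genes rose, and the list summed to 14.9, 401 and 216 CPM in arrested, 3.31 to 11.6 CPM in fresh and 186 to 311 CPM in het 2-cell libraries. Hba-a1 was at 2.21, 0 and 0 CPM in fresh, 4.24, 194 and 102 CPM in arrested and 87.3 to 154 CPM in het 2-cell libraries. Hba-a1 and Hba-a2 are near-identical, and the macrophage gene Cd68 was at 7.44, 0.515 and 3.09 CPM in arrested against 2.87 to 7.61 CPM in fresh libraries. None of 4 sperm markers passed, and their sum was 3.24 to 9.83 CPM in arrested and 7.7 to 10.5 CPM in fresh libraries. Among arrested and fresh libraries the sums of the oviduct, blood and granulosa lists were highest in arrested library 2, and their part in the zygotic gene results was not tested. All 12 markers of the oocyte and 1-cell embryo were detected in every arrested library, with 4 lower and 0 higher, and 7 of 10 markers of the 2-cell embryo rose. The 2-cell markers summed to 437, 3120 and 2210 CPM in arrested libraries and to 136 to 270 CPM in fresh ones. These markers are Zfp352 and members of families in the multicopy 2-cell list, so they are not separate support.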

How the data were processed

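RNA of mouse embryos was sequenced in 15 libraries, 3 in each of 5 groups taken from the labels, and the authors deposited raw read counts per gene for 56196 genes. Per the submitters' processing notes, reads were handled with Trim Galore 0.6.4, HISAT2 2.1.0 and featureCounts 1.6.5 on mm10. Which annotation release and strand setting were used, and whether duplicates were removed, these notes do not state. No molecular identifiers are named, so exact intervals and floors cover counting error only. Gene positions come from GENCODE M21, which matched 54587 gene IDs with their version and 55154 without it. Of 28 symbols that had been turned into dates 27 were restored.

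Counts were fitted with edgeR 4.0.16 (R 4.3.3, limma 3.58.1): filterByExpr, TMM factors and the quasi-likelihood F test on all 15 libraries, with Benjamini-Hochberg adjustment over the 23656 genes kept and a threshold of 0.05. The script was tested on simulated counts. Fold bounds for genes without fresh counts use 3 counts over the group, and log2 (CPM + 1) is used for correlations and for single-library differences. Single summed values were compared by exact two-sided permutation tests.

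The named genes are Eif4enif1, the 10 largest called changes in each direction (mean of at least 10 CPM in the higher group, no overlap of arrested and fresh libraries, no predicted-gene, clone or pseudogene name), and from each of 30 lists at most 4 called members, taken by p-value (the 2 with the smallest p where none was called). Promoters on mouse chromosome 18 were not used. The members and lists were chosen with earlier results of these data known. Of 1248 list symbols 1235 were found. Alternatives covered size factors, count filters, DESeq2 1.42.0, fewer libraries, a replicate block and limits on the count ceiling. 1 gene is not reported here.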

Additional observations from a re-analysis of the deposited data

How the results depend on the processing

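The counts of called genes moved with the libraries used. Each of the 129 called genes named by rule kept its direction without arrested library 1, without the capped fresh libraries, without all 3 of these, and with DESeq2. These genes were called on the same libraries, many with no overlap of the groups. Their direction was therefore largely fixed beforehand and does not measure stability. From 2358 higher and 925 lower genes, leaving out 1 library at a time gave 868 to 4365 higher and 354 to 1573 lower genes. Without both capped fresh libraries 19 and 85 were called (3635 at an unadjusted p under 0.05), where 1 fresh library is assumed to vary like the other groups. DESeq2 called 4060 and 1693. With only the 6 libraries in the fit edgeR called 0 and 0, and DESeq2, tried after seeing the data, 1343 and 848. A mean of at least 10 CPM left 1256 higher genes of 9145 tested. With the replicate number as a block 1328 higher and 581 lower genes were called, but the numbers do not pair the libraries: the same-numbered deviations correlated at -0.0274, -0.00537 and 0.0651 over 23656 genes. Other size factors, no count filter and a limit to genes under 25% or under 10% of the ceiling kept both counts within 1.5 times; the last of these was chosen after seeing the data. The low totals and the ceiling of fresh libraries 1 and 3 limit what can be said of abundant genes. The causes of these movements were not tested.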
